A study of Homo sapiens with 10 samples.

Results

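The comparison described here set 48 h of dasatinib against no treatment in MDA-MB-231 cells. Its members were the 2 libraries of 48 h and the 2 libraries of 0 h, 4 of the 10 libraries of the series, and the 15727 genes of the 36687 in the count table that passed a filter on low counts. MDA-MB-231 is an established triple-negative breast cancer line of the basal B subtype, with mesenchymal features and no appreciable hormone receptor or HER2 amplification. The 48 h cells had received dasatinib for 48 h, at 100 nM according to the legend of the study's time course, since the sample labels name no dose. The 0 h samples are titled as sham while their treatment field also names the drug, and they were taken as untreated. Each time has 2 biological replicates of 1 cell line, and how the cultures were separated is not stated, so the p-values measure the spread between these samples. No untreated cells of 48 h are among the samples, so drug and time in culture cannot be told apart.

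Dasatinib binds the ATP site of SRC family kinases and of several other tyrosine kinases, among them ABL, the ephrin receptors, the discoidin domain receptors and the PDGF receptors. SRC family kinases sit beneath integrins and growth factor receptors, where they phosphorylate focal adhesion proteins and feed signals into the actin cytoskeleton, the ERK cascade, STAT factors and the transcriptional cofactor YAP. Cells that leave the cell cycle lower the genes of replication and mitosis together, and these genes share promoter elements and regulators.

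The 4 libraries held 43226040 to 48950416 gene counts. Levels are given as CPM (counts scaled to a fixed library total), adjusted by the trimmed mean of M values (TMM), and all adjusted p-values are from edgeR's quasi-likelihood test with Benjamini-Hochberg adjustment over the 15727 genes, at a threshold of 0.05. The spread was estimated over all 10 libraries, in which 12 h replicate 1 stood apart from 12 h replicate 2. Mitochondrially encoded mRNAs made up 5.72% and 5.07% of counts at 0 h and 7.24% and 6.73% at 48 h, and their part in the results was not tested. A gene is said to have risen or fallen only where it passed the test.

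At 48 h 2512 genes were higher (16.0% of those tested) and 2565 were lower (16.3%), 32.3% in all. In none of these 5077 genes did the 48 h and 0 h libraries overlap, whereas over all genes tested both 48 h libraries were above both 0 h libraries in 37.7% and below them in 37.3%. The median change was 1.97-fold among the higher and 1.73-fold among the lower genes. The larger changes were mostly increases: 373 genes rose and 79 fell by 4-fold or more, and a test against a change of 2-fold called 355 higher (2.26%) and 159 lower (1.01%). With 0 h replicate 1 or 2 or 48 h replicate 1 or 2 left out, 2913, 3002, 2921 and 2915 genes were changed, and without 12 h replicate 1 or 2 there were 8364 and 8351. In every one of 18 other fits by edgeR or DESeq2, 2339 of the genes passed in the same direction, 1160 higher and 1179 lower. Below, groups of genes are described by how many members passed, to be read against the 16.0% higher and 16.3% lower of all genes tested. A group with shares near these shows no change of its own. The count without a library is given where that moved it by over 1.5 times, and moves of 3 members or fewer are not all listed.

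**Figure D1:**
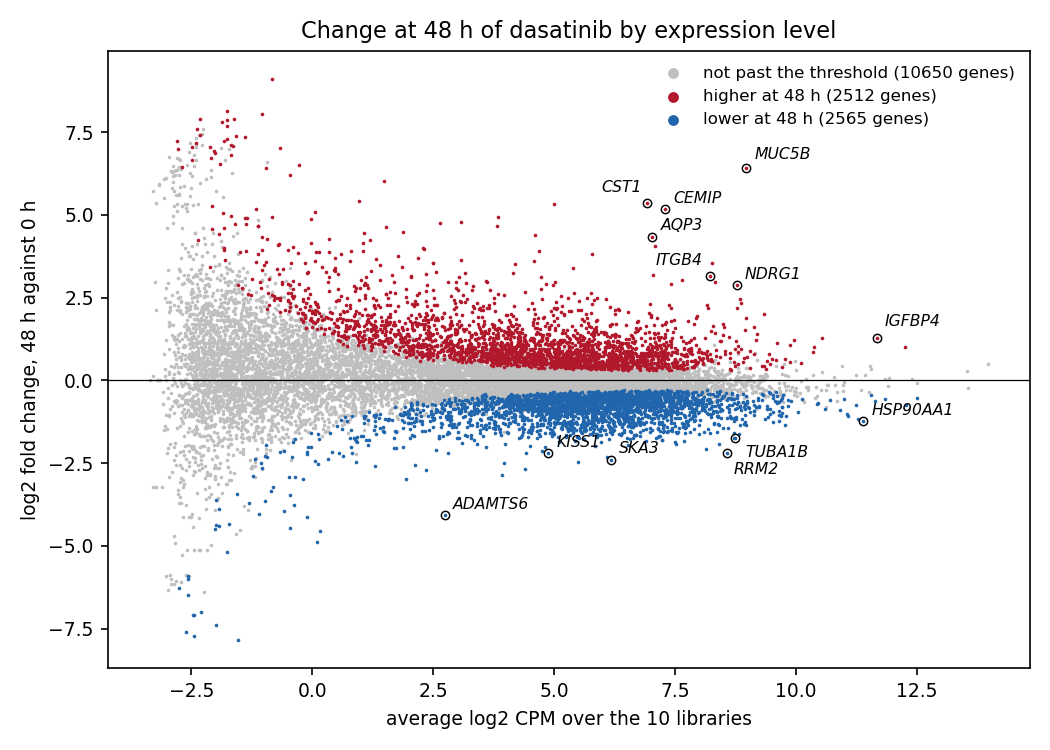
Log2 fold change at 48 h against 0 h (vertical axis) by average log2 CPM over the 10 libraries (horizontal axis), 1 point per gene tested. Red points are the 2512 higher and blue points the 2565 lower genes. Among called genes at an average log2 CPM of 2 or more the increases reach further from 0 than the decreases, and MUC5B stands highest.

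Abundant genes fell more often than they rose. Of the genes at an average log2 CPM of 8 or more, 33.1% were lower and 14.3% higher, and of those between 2 and 4, 12.3% were lower and 23.4% higher. In the deposited TPM (the transcript share of each gene after scaling by length), the 2512 higher genes held 9.05% of all transcripts at 0 h and 19.0% at 48 h, and the lower genes 32.4% and 19.4%. Short transcripts fell more than long ones. The median log2 fold change was −0.18 in the 3061 genes with the shortest transcripts, of which 6.01% were higher and 15.6% lower, and 0.15 in the 3060 with the longest, of which 23.6% were higher and 10.9% lower. Between the 2 replicates of either time this trend was nearly absent (group medians of −0.01 to 0.02).

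Markers of the line were mixed. The mesenchymal marker *VIM* had 1393 and 1313 CPM in the 0 h libraries and 931 and 895 CPM in the 48 h libraries, and *CD44* had 465 and 456 CPM in the 0 h libraries and 249 and 247 CPM in the 48 h libraries. Both fell (log2 fold changes −0.57 and −0.89). The estrogen receptor gene *ESR1* stayed under 1 CPM in all 4 libraries and *CDH1*, the epithelial cadherin gene, had at most 10 counts. The mesenchymal cadherin gene *CDH2* was low too, with 12 and 12 counts at 0 h and 40 and 18 at 48 h, and the luminal keratin gene *KRT8* was abundant, with 439 and 492 CPM in the 0 h libraries and 528 and 499 CPM in the 48 h libraries. *ERBB2*, which encodes HER2, had 57 and 69.5 CPM in the 0 h libraries and 62.9 and 56.2 CPM in the 48 h libraries. Of 24 markers of immune, endothelial, fibroblast, liver, glial and red blood cells, 12 passed the filter on low counts, and 4 of these were higher at 48 h and 0 lower. The 4 were *PECAM1* (from 1.77 and 1.12 CPM to 7.21 and 7.62 CPM), *CD14*, *MBP* and *GFAP*. The markers *CD3E*, *MS4A1*, *ITGAM*, *LUM* and *HBA1* had 0 counts in all 4 libraries and *PTPRC* at most 16. The fibroblast marker *COL1A1* was present, with 408 and 460 counts at 0 h and 414 and 384 at 48 h. The list summed to 19.3 and 20.2 TPM at 0 h and 35.3 and 35.8 TPM at 48 h, and its part in the results was not tested.

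The genes that rose most, among those whose average log2 CPM was 2 or more, included several that encode secreted and surface proteins of epithelia. The gel-forming mucin gene *MUC5B* went from 23.4 and 21.8 CPM to 1984 and 1906 CPM, 85.9 times its untreated level (log2 fold change 6.42, standard error 0.26, adjusted p = 1.27e-06). The hyaluronan-binding gene *CEMIP* went from 11.4 and 14.7 CPM to 481 and 465 CPM. The water channel gene *AQP3* rose from 19.7 and 16.1 CPM to 365 and 361 CPM, and *PTGES*, whose product makes prostaglandin E2, from 14.9 and 13.9 CPM to 259 and 221 CPM. Further members of the 15 were *SCEL* (sciellin, of cornified epithelia, log2 fold change 4.76), *RAB17* (a GTPase of polarised epithelia, 3.91), *GPRC5C* (3.81), *SLITRK6* (4.80), *ENPP2* (autotaxin, 4.93), *SNED1* (4.66), the flippase gene *ATP8A1* (4.39), *ICAM1* (4.0) and the pseudogene *FER1L4* (3.96). The cystatin genes *CST1* and *CST4* had 5.37 and 5.34. Their sequences are similar enough that reads could be shared between them and *CST2*, so the split between the 3 is uncertain.

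Among genes with an average log2 CPM of 2 or more, the largest decreases were smaller than the largest increases. Larger falls were found at lower levels: over all called genes 22 fell and 74 rose by 16-fold or more. *ADAMTS6*, a secreted metalloprotease gene, fell from 21.4 and 23.5 CPM to 1.23 and 1.43 CPM (log2 fold change −4.08, standard error 0.25, adjusted p = 5.3e-06). It was followed by the ubiquitin ligase gene *MARCHF4* (−2.87), *PEAR1* (−2.71), *INSYN2B* (−2.67), *TENT5B* (−2.56), the synaptic gene *RIMS2* (−2.49) and the aldehyde oxidase gene *AOX1* (−2.46). The other 8 of the 15 included 4 genes of the cell cycle, *SKA3*, *PKMYT1*, *RRM2* and *AUNIP*, the tubulin gene *TUBA4A* (−2.13) and *KISS1*, which encodes kisspeptins (from 41.6 and 51 CPM to 9.07 and 11.3 CPM, log2 fold change −2.19). Both 48 h libraries lay below both 0 h libraries in these genes, which was a condition for the 15 in either direction.

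**Figure D2:**
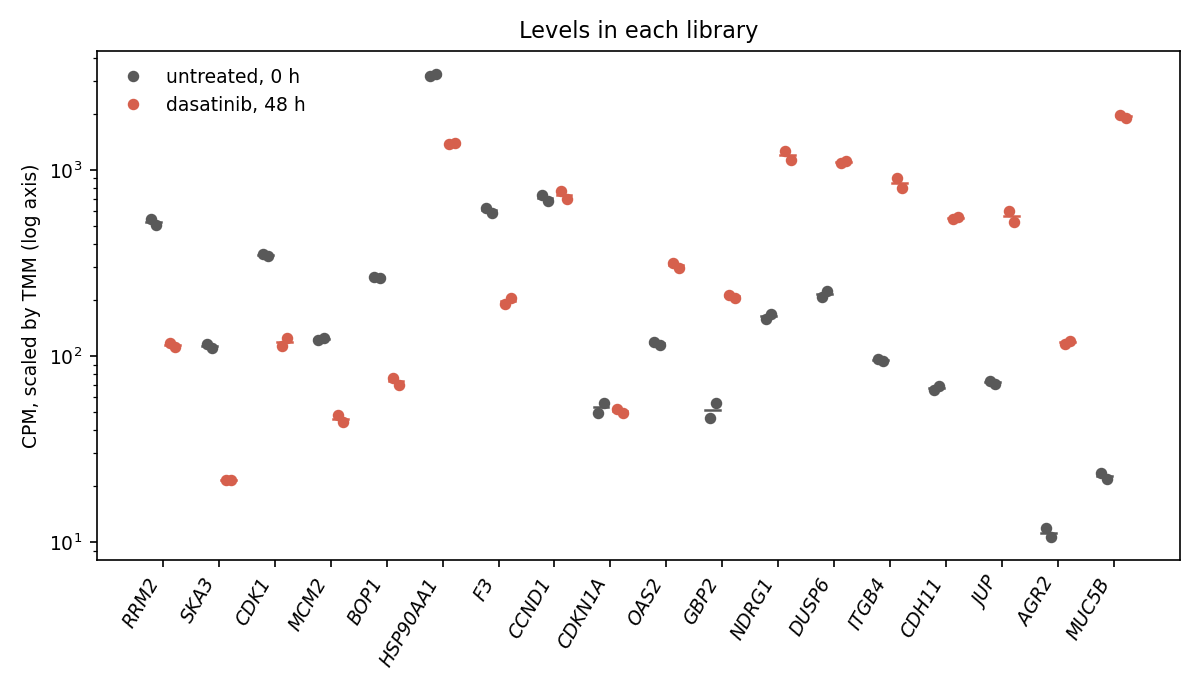
CPM scaled by TMM (logarithmic axis) of 18 genes in each library. Grey points are the untreated libraries, red points the libraries of 48 h of dasatinib, and bars the means of 2. The replicates lie close together beside the differences between times, and CCND1 and CDKN1A show overlapping groups.

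Genes of mitosis fell almost without exception. Of 86 measured genes of mitotic kinases, kinetochores, spindle and kinesins, 85 were lower and 0 higher, with a median log2 fold change of −1.41 against 0.01 over all genes tested. The summed level of the 86 went from 11380 and 11460 TPM to 4333 and 4589 TPM. The cyclin genes *CCNA2* and *CCNB1*, which activate CDK1 on the way into mitosis, went from 167 and 152 CPM to 47.2 and 43.3 CPM and from 297 and 287 CPM to 94.7 and 102 CPM. *CDK1* itself had 352 and 346 CPM in the 0 h libraries and 114 and 125 CPM in the 48 h libraries (log2 fold change −1.55, standard error 0.13, adjusted p = 2.3e-05). The polo-like kinase gene *PLK1* (−1.69), the Aurora A gene *AURKA* (−1.51), the kinesin genes *KIF20A* (−1.55) and *KIF2C* (−1.54), the kinetochore gene *SKA3* (−2.39), the proliferation marker *MKI67* (−1.44) and *TOP2A* (−1.16) fell as well. In all 18 other fits 83 of the 86 were lower.

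Genes of DNA replication were lower too. Of 58 genes of origins and forks, 54 fell and 0 rose (median −1.22). The helicase loader *CDC6* went from 182 and 181 CPM to 69 and 64 CPM, the helicase subunit *MCM2* from 122 and 125 CPM to 48.2 and 44.2 CPM, and the clamp gene *PCNA* from 242 and 247 CPM to 117 and 121 CPM. The clamp loader subunit *RFC3* (log2 fold change −1.78, standard error 0.12, adjusted p = 8.16e-06) and *TIPIN*, which travels with the fork (−1.75), fell as well. The ribonucleotide reductase subunit *RRM2*, which is made in S phase, fell from 543 and 508 CPM to 118 and 112 CPM (log2 fold change −2.19, standard error 0.11, adjusted p = 3.46e-06), and of 14 genes of deoxynucleotide synthesis 9 fell, *TK1*, *TYMS* and *RRM1* among them. The 2 that rose were the mitochondrial thymidine kinase gene *TK2* (from 17.2 and 19 CPM to 42.9 and 40.4 CPM) and *SAMHD1*, which degrades deoxynucleotides (0.33, adjusted p = 0.0422). Of 32 genes of homologous recombination and the Fanconi pathway, 23 fell and 0 rose, led by *EXO1* (−1.85), *RAD54L* (−1.75) and *FANCD2* (−1.61).

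Most regulators of this programme fell. The activators *E2F1* (−0.96), *MYBL2* (from 256 and 261 CPM to 75.1 and 71.6 CPM, log2 fold change −1.82) and *FOXM1* (−1.59) fell, and the pocket protein gene *RBL2*, whose product holds cell cycle promoters silent in resting cells, rose from 32.1 and 28 CPM to 52.6 and 54.1 CPM (log2 fold change 0.83, standard error 0.18, adjusted p = 0.00512). Of the 24 genes of E2F, pocket protein and MuvB factors, 17 were lower and 1 higher. Among 17 G1 cyclins, their kinases and inhibitors, 8 fell, among them *CCNE2* (−1.48), *SKP2* (−1.20), *CDK2* (−1.13) and *CKS1B* (−1.80). The 2 that rose were *CCNG2*, an atypical cyclin of resting cells (from 32.2 and 33.4 CPM to 98.8 and 111 CPM, log2 fold change 1.68), and the CDK inhibitor gene *CDKN1B* (0.53, adjusted p = 0.0271). Cyclin D1 mRNA did not pass, with *CCND1* at 729 and 685 CPM in the 0 h libraries and 775 and 695 CPM in the 48 h libraries (adjusted p = 0.845), and neither did *CDKN1A*, the p21 gene, at 49.6 and 56.3 CPM in the 0 h libraries and 51.8 and 49.7 CPM in the 48 h libraries (adjusted p = 0.859).

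The promoters of a replication and a mitosis gene are printed because the lists they stand for differ in the motif their promoters hold. Both sequences are 120 bases upstream of the start site from RefSeq (build GRCh38.p14), in the direction of transcription. Capitals mark a match to the E2F letters TTCCCGC, here on the opposite strand, in *RFC3* (chr13:33818001-33818120, plus strand), and to the cell cycle genes homology region (CHR) letters TTTGAA in *KIF4A* (chrX:70289976-70290095, plus strand), a mitotic kinesin gene that fell from 113 and 115 CPM to 40.2 and 40.7 CPM.
RFC3: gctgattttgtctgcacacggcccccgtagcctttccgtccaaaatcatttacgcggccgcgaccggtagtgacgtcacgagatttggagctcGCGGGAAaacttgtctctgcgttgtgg
KIF4A: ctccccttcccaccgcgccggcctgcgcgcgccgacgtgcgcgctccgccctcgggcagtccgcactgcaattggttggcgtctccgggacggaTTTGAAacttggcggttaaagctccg
The match ended 48 bases before the start site in *RFC3* and 28 bases before it in *KIF4A*. Motifs were searched on both strands of 300 bases, from 250 before to 50 after the start, in the 12160 tested genes that had a promoter sequence. The E2F letters were in 9.88% of all these promoters and in 40% of 50 replication promoters, but in 9.59% of 73 mitosis promoters. The CHR letters were in 10.2% of all and 64.4% of the mitosis promoters, and in 2% of the replication promoters. The letters CCAAT, bound by NF-Y, were in 36.2% of all, 74% of mitosis and 58% of replication promoters. Over all lower genes the shares were 15.6% for E2F, 13.2% for CHR and 41.8% for CCAAT, and over all higher genes 8.06%, 9.42% and 33.6%. In the 250 bases upstream alone, E2F was in 30% of replication promoters (8.54% of all) and CHR in 45.2% of mitosis promoters (8.84% of all). A match describes the letters and does not show a bound site.

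**Figure D3:**
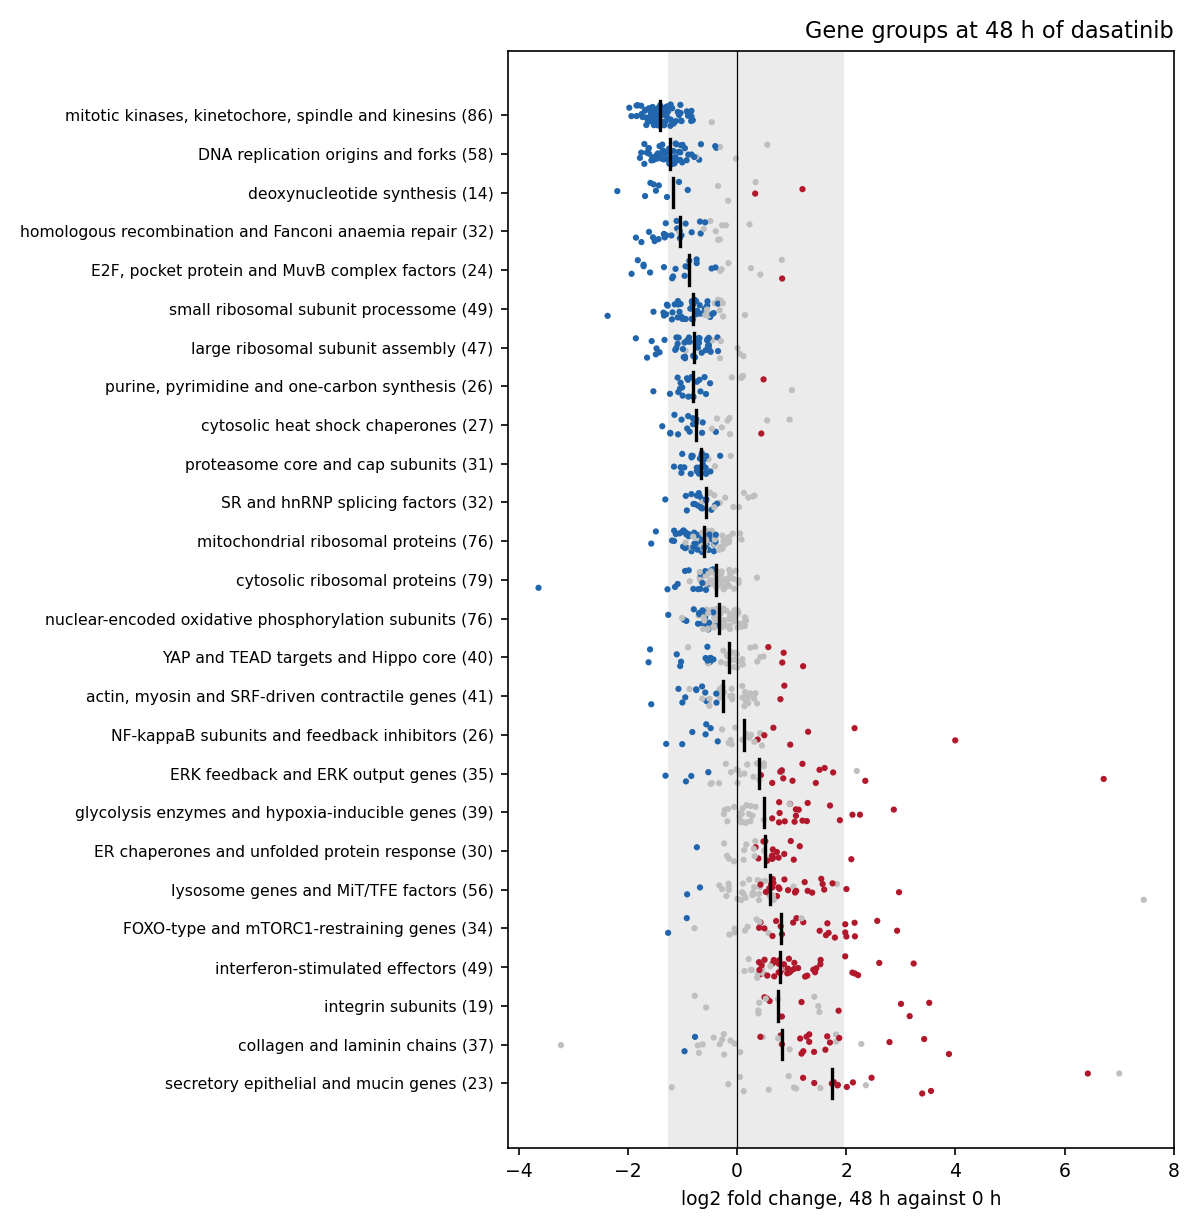
Log2 fold change at 48 h against 0 h of the members of 26 gene groups, with the number measured in parentheses. Each point is a gene (red higher, blue lower, grey not past the threshold), black bars are group medians, and shading spans the 5th to 95th percentile of all genes tested (−1.27 to 1.96). Mitosis and replication lie almost wholly below 0 and interferon-stimulated effectors wholly above it.

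Genes that build ribosomes fell with the cell cycle genes. The processome that matures the small subunit had 39 of 49 members lower and 0 higher (median −0.81), and the factors that assemble the large subunit 40 of 47 and 0 (median −0.79). The methyltransferase gene *FBL* (fibrillarin) went from 325 and 315 CPM to 145 and 135 CPM, and *BOP1*, a large subunit factor, from 265 and 264 CPM to 76.7 and 69.8 CPM (log2 fold change −1.85, standard error 0.13, adjusted p = 8.37e-06). *CCDC86* (−1.65), *EBNA1BP2* (−1.56), *NLE1* (−1.33), *NOC4L* (−1.30) and *IMP4* (−1.27) were the other members with the smallest adjusted p. Of 35 genes of RNA polymerases I and III 18 fell and 0 rose, 7 to 10 without either library of 0 h or of 48 h. Their largest change was in *POLR3G*, a polymerase III subunit of growing and undifferentiated cells (from 46.1 and 42.9 CPM to 10.4 and 11.8 CPM, log2 fold change −2.00).

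One promoter of this group is printed because both ribosome lists held its letters in a larger share than all promoters. It is that of *EBNA1BP2* (RefSeq, build GRCh38.p14, chr1:43172701-43172820, minus strand), with capitals at a match to the E-box letters CACGTG, which read the same on both strands and are bound by factors of the basic helix-loop-helix family.
EBNA1BP2: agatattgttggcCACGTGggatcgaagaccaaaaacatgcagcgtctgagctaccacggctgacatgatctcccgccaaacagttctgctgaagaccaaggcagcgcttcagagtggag
The match ended 231 bases before the start site. The E-box letters were in 9.51% of all 12160 promoters, in 50% of 44 processome promoters and in 31.6% of 38 promoters of large subunit factors. In the promoters of all lower genes they were found in 12.7%, and in those of all higher genes in 8.56%. These shares rest on the window: in the 250 bases upstream of the start alone they were 15.9% of processome promoters, 13.2% of those of large subunit factors and 8.37% of all, so most matches of both lists reached past the start site, unlike the one printed.

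For the proteins of the ribosome itself the median change was nearer to 0. Of 79 cytosolic ribosomal protein genes 19 were lower and 0 higher (median −0.38), and 76 of the 79 had a negative log2 fold change. This count was 1 to 3 without either library of 0 h or of 48 h and 62 without either 12 h library. Their summed level was 81730 and 82780 TPM at 0 h and 66380 and 65120 TPM at 48 h. Mitochondrial ribosomal protein genes had 39 of 76 lower and 0 higher (18 to 23 without either library of 0 h or 48 h, 64 without either of 12 h), led by *MRPL37* (from 183 and 178 CPM to 90.9 and 83.1 CPM). Nuclear-encoded subunits of oxidative phosphorylation had 17 of 76 lower and 0 higher, *CYC1* and *ATP5F1B* among them (−0.97 and −0.63). That count was 6 or 7 without either library of 0 h or 48 h, 10 without either of 6 h or 24 h, and 49 and 48 without 12 h replicate 1 or 2. These 3 lists hold short transcripts (median lengths 785, 1242 and 784 bases), which fell more than long ones across all genes. With each library's trend on length and GC content removed, their medians were −0.23, −0.46 and −0.19, and 25, 42 and 19 members were lower. Of all genes at an average log2 CPM of 8 or more 33.1% were lower and 14.3% higher, against 24.1% and 0% in the cytosolic list (median 9.51). At 6 to 8 these shares were 29.3% and 17.1%, against 22.4% and 0% in oxidative phosphorylation (median 6.16). The part of level was not tested.

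Synthesis of building blocks fell in parts. In purine, pyrimidine and one-carbon synthesis 20 of 26 genes were lower and 1 higher. *PFAS* and *PAICS* of the purine pathway went from 126 and 129 CPM to 47 and 41.2 CPM and from 689 and 658 CPM to 333 and 325 CPM, and *CAD*, which starts pyrimidine synthesis, from 203 and 203 CPM to 106 and 96.6 CPM. *IMPDH2*, the isoform of growing cells, fell (−1.07) and *IMPDH1*, its paralog, rose (0.49, adjusted p = 0.00919). Among 20 cytosolic aminoacyl-tRNA synthetases 10 fell and 1, *CARS1*, rose, with *FARSB* (−1.35) and *VARS1* (−1.10) lowest. The count of 10 was 3 to 6 without either library of 0, 6, 24 or 48 h.

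Protein folding moved in opposite directions in the cytosol and in the endoplasmic reticulum (ER). Of 27 cytosolic chaperone genes 17 fell and 1, *BAG3*, rose. The heat shock protein 90 genes *HSP90AA1* and *HSP90AB1* went from 3184 and 3280 CPM to 1384 and 1387 CPM and from 2805 and 2907 CPM to 1425 and 1402 CPM, and the chaperonin genes *HSPD1*, *TCP1* and *CCT8* had log2 fold changes of −1.22, −1.15 and −0.89. The HSP90 genes have many processed pseudogenes, which could take part of their reads. Of 30 ER chaperone and unfolded protein response genes 17 rose (9 or 10 without either library of 0 h or 48 h) and 1, *SDF2L1*, fell. *CREB3L1*, an ER-anchored factor that drives secretory cargo genes, went from 12 and 14.6 CPM to 58.2 and 55.4 CPM, the COPII coat gene *SEC24D* from 68.9 and 67.1 CPM to 137 and 142 CPM, and *XBP1* from 139.9 and 141 CPM to 222 and 223 CPM. *HSPA5*, the main ER chaperone gene, rose little (0.34, adjusted p = 0.0419) and kept its call in 2 of the 10 fits with 1 library left out.

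Proteasome and splicing genes were lower. Of 31 proteasome subunits 26 fell and 0 rose (15 to 17 without either library of 0 h or 48 h), all 31 with negative log2 fold changes, led by *PSMD2* (from 600.1 and 635 CPM to 281 and 275 CPM). Of 32 SR and hnRNP splicing factors 19 fell and 0 rose (8 to 11 without either library of 0 h or 48 h), led by *HNRNPM* (−0.94) and *TRA2B* (−0.92). Genes of the amino acid stress response split: among 27 measured targets of ATF4 and its pathway 7 rose and 6 fell. The amino acid transporter genes *SLC3A2*, *SLC7A1* and *SLC7A5* fell (−0.85, −0.83 and −0.65), while *GDF15*, a stress cytokine gene, rose from 2.75 and 4.36 CPM to 43.9 and 43.4 CPM and *DDIT4*, an mTORC1 inhibitor gene, from 15.2 and 18.5 CPM to 78.5 and 71.2 CPM. The 7 were 13 and 12 without 12 h replicate 1 or 2, and the 6 were 3 without 48 h replicate 2. *ATF4* did not pass, at 389 and 388 CPM in the 0 h libraries and 366 and 381 CPM in the 48 h libraries.

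Lysosome genes were more often higher than lower. Of 56 lysosome genes 25 were higher and 2 lower (median 0.60), and the higher count was 16 without 48 h replicate 1 and 38 without either 12 h library. The hydrolase genes *FUCA1* and *ASAH1* went from 12.8 and 11.9 CPM to 51.4 and 47.9 CPM and from 55.2 and 51.2 CPM to 109 and 113 CPM, and the cathepsin D gene *CTSD* from 94.4 and 109 CPM to 312 and 290.4 CPM (adjusted p = 0.0128). The 2 that fell were *GLA* and *MCOLN1*. *TFEB*, the best-known transcription factor of lysosome genes, did not pass, at 3.01 and 3.6 CPM in the 0 h libraries and 4.64 and 4.2 CPM in the 48 h libraries. Of 36 autophagy genes 13 rose (7 and 8 without 0 h or 48 h replicate 1) and 2 fell; the kinase gene *ULK1* (1.16), the cargo receptor gene *SQSTM1* (0.89) and *TP53INP2* (1.54) rose and *ATG3* fell (−0.92).

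The list of FOXO-type and mTORC1-restraining genes, which are high when growth factor signalling through AKT is low, had 22 of 34 members higher and 2 lower (median 0.81). *TXNIP*, which limits glucose uptake, went from 83.9 and 84.5 CPM to 172 and 186 CPM, *YPEL5* from 29.5 and 31.2 CPM to 94.1 and 93.6 CPM, and *TP53INP1* from 2.44 and 2.78 CPM to 19.4 and 20.4 CPM. The 2 that fell were *SGK1* (−0.92) and *GADD45B* (−1.26). The factors *FOXO1* and *FOXO3* did not pass (adjusted p = 0.0605 and adjusted p = 0.863). In the circadian list 7 of 22 genes rose, the repressors *BHLHE40* (from 64.1 and 59.5 CPM to 179 and 189 CPM) and *BHLHE41* (2.96) among them, and 2 fell, *CRY1* and *BMAL2*. Without 0 h replicate 2 the 7 were 4.

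Genes known to be induced by low oxygen were among the higher ones. Of 39 glycolysis and hypoxia-inducible genes 18 were higher and 0 lower (median 0.49). *NDRG1* went from 158 and 169 CPM to 1267 and 1128 CPM (log2 fold change 2.87, standard error 0.14, adjusted p = 3.46e-06), the angiogenic factor gene *VEGFA* from 67.2 and 69.3 CPM to 247 and 257 CPM, the carbonic anhydrase gene *CA9* from 7.85 and 8.85 CPM to 38.7 and 41 CPM and *EPAS1*, which encodes HIF-2α, from 40.9 and 33 CPM to 123 and 118 CPM. Lactate dehydrogenase A and hexokinase 2 mRNAs did not pass: *LDHA* had 2530 and 2565 CPM in the 0 h libraries and 2822 and 2840 CPM in the 48 h libraries and *HK2* had 99.5 and 99.1 CPM in the 0 h libraries and 94.1 and 83.2 CPM in the 48 h libraries (adjusted p = 0.392 and adjusted p = 0.298). The oxygen level of the cultures was not stated.

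Interferon-stimulated genes rose without a member that fell. Of 49 effectors 37 were higher and 0 lower, and all 49 log2 fold changes were positive (median 0.79). Their summed level went from 8827 and 8965 TPM to 15790 and 16200 TPM. The antiviral GTPase genes *MX1* and *MX2* went from 67.9 and 70 CPM to 147 and 139 CPM and from 43.8 and 41.6 CPM to 105 and 104 CPM, the oligoadenylate synthase gene *OAS2* from 119 and 115 CPM to 318 and 299 CPM (log2 fold change 1.40, standard error 0.10, adjusted p = 1.29e-05), and the membrane gene *IFITM1* from 7.73 and 6.97 CPM to 42.7 and 46.9 CPM. *ISG15* was already at 551 and 554 CPM at 0 h and did not pass, with 725 and 705 CPM at 48 h (adjusted p = 0.306). Of the upstream factors, *STAT2* went from 69.3 and 70.7 CPM to 150.3 and 159 CPM, whereas *IRF9* and *IRF1* did not pass (adjusted p = 0.176 and adjusted p = 0.299). Of 29 STAT, IRF and guanylate-binding protein genes 8 rose, 4 or 5 without either library of 0 h or 24 h or without 48 h replicate 1. The feedback inhibitors *SOCS2* and *SOCS3* fell (−1.02 and −1.11).

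The promoter of *IFI44L*, the effector with the smallest adjusted p that holds the letters, shows the interferon-stimulated response element (ISRE). The letters searched were TTTC, any 2 bases and TTTC, and capitals mark a match on the opposite strand (RefSeq, build GRCh38.p14, chr1:78620285-78620404, plus strand).
IFI44L: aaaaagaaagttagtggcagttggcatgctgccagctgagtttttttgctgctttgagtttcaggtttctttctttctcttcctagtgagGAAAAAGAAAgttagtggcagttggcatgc
The match ended 63 bases before the start site. *IFI44L* rose from 129 and 126 CPM to 347 and 389 CPM (log2 fold change 1.53, standard error 0.13, adjusted p = 2.34e-05). The ISRE letters were in 2.94% of all 12160 promoters and in 27 of 41 effector promoters (65.9%). Over all higher genes the share was 3.58%, and over all lower genes 2.65%. In the 250 bases upstream alone they were 58.5% of effector promoters and 2.47% of all. The median GC content was 55.3% in the effector promoters and 64.7% in all.

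**Figure D4:**
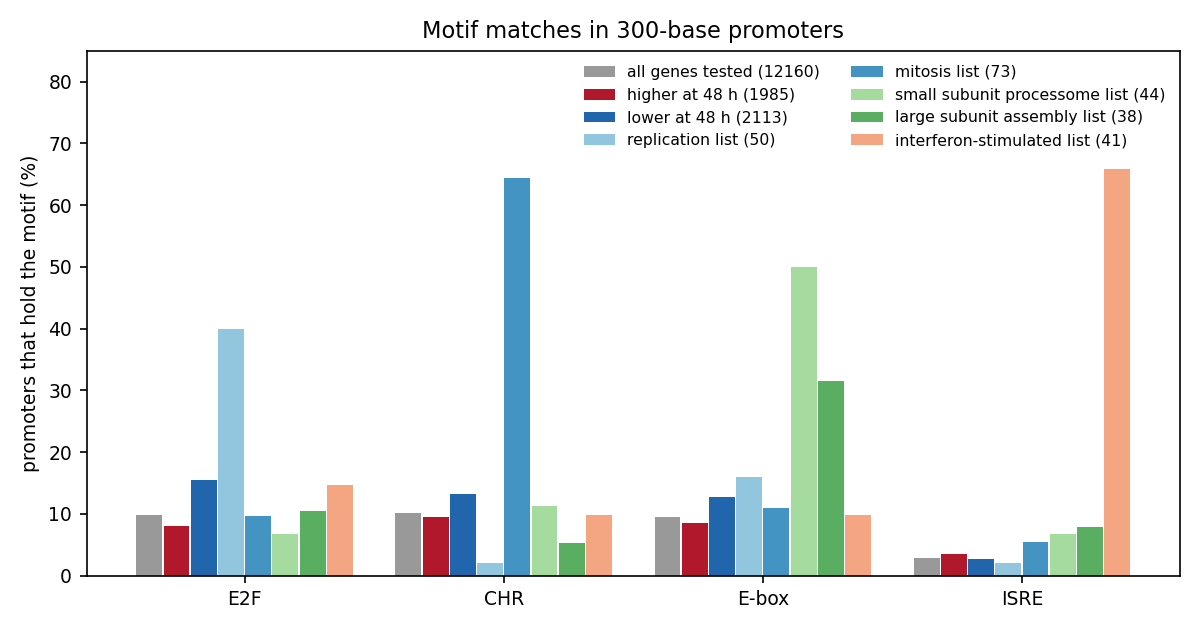
Share of 300-base promoters (vertical axis, percent) that hold the letters of each of 4 motifs, in all genes tested, the higher and lower genes and 5 gene lists, with the number of promoters in parentheses. The tall bars are CHR in mitosis (64.4%), ISRE in interferon-stimulated effectors (65.9%), E-box in the processome (50%) and E2F in replication (40%); in the 250 upstream bases alone, not plotted, they are 45.2%, 58.5%, 15.9% and 30%.

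Several genes that were higher at 48 h had first gone the other way. *OAS2* had 38.4 and 37.5 CPM at 6 h, below its 119 and 115 CPM at 0 h, 148 and 155 CPM at 24 h and 318 and 299 CPM at 48 h. *MX1* fell to 28.7 and 28.5 CPM at 6 h before it rose. The integrin gene *ITGB4* and the activin gene *INHBB* followed the same course, and the amino acid transporter gene *SLC7A5* the reverse, with 803 and 969 CPM at 6 h and 252 and 221 CPM at 48 h. In each the 48 h and 6 h libraries lay on opposite sides of both 0 h libraries.

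**Figure D5:**
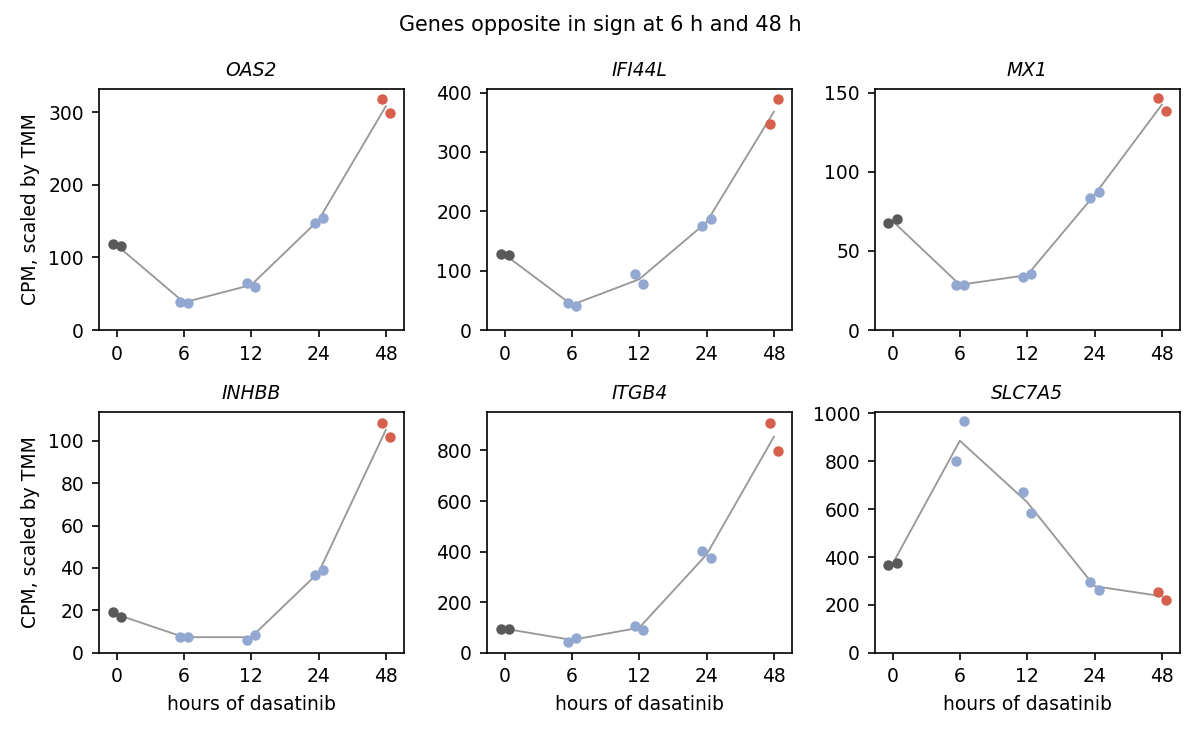
CPM scaled by TMM of 6 genes against hours of dasatinib, times evenly spaced, with 2 libraries per time and lines through the means. Grey points are untreated, red points 48 h. The first 5 genes dip below the untreated level at 6 h and lie above it at 48 h, and SLC7A5 peaks at 6 h.

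Other immune genes moved less evenly. In MHC class I presentation 19.0% were higher and 9.52% lower, against 16.0% and 16.3% of all genes tested. Among 21 genes of MHC class I presentation 4 rose and 2 fell, 1 or 2 higher without either library of 0 h or 48 h and 10 without either 12 h library. *HLA-B* went from 30.4 and 32.3 CPM to 103 and 97.1 CPM (adjusted p = 0.0154), and its reads may be shared with the other class I genes. *CD274*, which encodes PD-L1, fell from 43.5 and 44.6 CPM to 31.9 and 30.2 CPM (log2 fold change −0.50, standard error 0.12, adjusted p = 0.00814), and *B2M* did not pass (adjusted p = 0.0716). Among 34 chemokine, interleukin and receptor genes 10 rose, with the macrophage growth factor gene *CSF1* (from 144 and 129 CPM to 551 and 489.6 CPM) and the receptor genes *IL4R* and *OSMR* (1.49 and 0.93) among them. The 3 that fell, *IL7R* (−1.75), *IL18* and *IL6R*, were 1 without any library other than those of 12 h. Of 16 complement genes 9 rose and 0 fell (median 1.51), the shield genes *CD55* (from 246 and 237 CPM to 609 and 653 CPM) and *CD46* and the protease gene *C1R* among them. NF-kappaB genes split evenly, 7 higher and 7 lower of 26. The adhesion gene *ICAM1* (from 0.836 and 1.15 CPM to 15.5 and 16.3 CPM) and *BCL3* rose, and *NFKB1* and *CHUK* fell (−0.56 and −0.57). Those counts were 3 higher without either library of 0 h or 48 h, and 3, 3 and 4 lower without 0 h replicate 2 or 48 h replicate 1 or 2.

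The mRNAs of the drug's main targets did not pass. *SRC* had 44.2 and 50.4 CPM in the 0 h libraries and 41.5 and 38.1 CPM in the 48 h libraries (adjusted p = 0.199), and *YES1*, *FYN* and *LYN* had adjusted p-values of 0.776, 0.791 and 0.726. Among the regulators, *CSK*, the kinase that inhibits SRC family members, fell from 190.1 and 192 CPM to 103 and 104 CPM (log2 fold change −0.89, standard error 0.16, adjusted p = 0.00204), and the phosphatase gene *PTPRA*, whose product activates them, rose slightly (0.39, adjusted p = 0.0157). The distant relative *FRK* (from 3.34 and 2.87 CPM to 10.7 and 12.9 CPM) and the ubiquitin ligase gene *CBLB* (1.48) rose. Of 37 other kinases that dasatinib binds 6 rose and 3 fell, shares of 16.2% and 8.11% against 16.0% and 16.3% of all genes tested. *DDR1*, a collagen receptor kinase, went from 11.7 and 13 CPM to 29.8 and 26.9 CPM, and *EPHA2* from 470.4 and 475 CPM to 686 and 639 CPM (adjusted p = 0.0159). *EPHB2* fell (−0.71), and *ABL1* did not pass (adjusted p = 0.589). The 6 were 2 or 3 without either library of 0 h or 48 h and 13 and 12 without 12 h replicate 1 or 2, and the 3 were 1 without 0 h replicate 2 or 48 h replicate 1 and 8 without either 12 h library.

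Growth factor receptors and ligands were more often higher than lower. Of 35 receptors and ligands 10 rose and 3 fell (5 or 6 higher without either library of 0 h or 48 h, and 17 higher and 7 lower without either 12 h library). *IGF1R* went from 86.3 and 92.1 CPM to 178 and 179 CPM, the ligand gene *TGFA* from 33.5 and 36.6 CPM to 96.4 and 96.4 CPM, and *ERBB3* from 3.99 and 3.53 CPM to 6.37 and 5.99 CPM (adjusted p = 0.0199). *AXL*, an abundant receptor of mesenchymal lines, fell from 963 and 1033 CPM to 528 and 454 CPM (log2 fold change −1.02, standard error 0.24, adjusted p = 0.00847) and its relative *TYRO3* fell too (−1.07). *EGFR* and *MET* did not pass (adjusted p = 0.371 and adjusted p = 0.172).

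Of 35 ERK feedback and output genes 13 rose, 4 fell and 18 did not pass. *DUSP6*, the phosphatase gene that ERK signalling induces against itself, went from 208 and 224 CPM to 1087 and 1118 CPM (log2 fold change 2.35, standard error 0.19, adjusted p = 1.93e-05), and *SPRY4* and *DUSP4* from 325 and 327 CPM to 1004 and 979.5 CPM and from 245 and 247 CPM to 726 and 676 CPM. *ETV1* rose (1.76), while *ETV4* and *ETV5* did not pass (adjusted p = 0.597 and adjusted p = 0.428). The 4 that fell were *FOSL1*, an AP-1 subunit gene of invasive lines (from 372 and 355 CPM to 150.0 and 143 CPM), *EGR1* (−0.52), *IER5* and *PEA15*, and were 2, 2, 2 and 1 without 0 h replicate 1 or 2 or 48 h replicate 1 or 2 and 7 without either 12 h library. Of 24 AP-1 and immediate early genes 6 fell, *FOS* among them (−0.85), 3 rose, *NR4A1*, *NR4A2* (2.20) and *EGR3*, and *JUN* did not pass (adjusted p = 0.595). The 6 were 3 without 0 h replicate 1 and 2 without 48 h replicate 2, and the 3 were 1 without 0 h replicate 2, 48 h replicate 1 or 6 h replicate 1 and 7 without either 12 h library. Of 20 ETS factors 4 rose and 3 fell, shares near those of all genes, with 2 and 1 left without any 1 library of 0 h or 48 h and 6 and 6 without either of 12 h. *ETS1* and *ETS2* fell (−0.89 and −0.57) and *SPDEF*, an ETS factor of secretory epithelia, rose from 8.16 and 9.82 CPM to 51.8 and 47.5 CPM (log2 fold change 2.46, standard error 0.16, adjusted p = 6.69e-06).

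The list of YAP and TEAD targets, which also holds core genes of the Hippo pathway, had more lower than higher members. Of 40 genes 13 fell (5 or 6 without either library of 0 h or 48 h) and 4 rose (7 without either 12 h library). The tissue factor gene *F3* went from 626 and 589 CPM to 192 and 204 CPM, *ANKRD1* from 462 and 496 CPM to 222 and 224 CPM and *CCN1* from 1552 and 1667 CPM to 783 and 782 CPM. *CCN2* barely passed (−0.48, adjusted p = 0.0463). *YAP1* did not pass, while its paralog *WWTR1*, which encodes TAZ, rose from 154 and 151 CPM to 346 and 359.6 CPM and the DNA-binding partner *TEAD4* fell from 46.7 and 52.6 CPM to 17.7 and 15.3 CPM. The letters GGAATG, bound by TEAD factors, were in 29% of 31 promoters of the list and in 11.3% of all.

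Cytoskeletal genes fell in part. Of 41 actin, myosin and serum response factor-driven genes 11 fell and 2 rose (6 rose without either 12 h library). *ACTB* went from 6139 and 5565 CPM to 3602 and 3389 CPM, *TPM3* from 966 and 918 CPM to 484 and 493 CPM and the filamin gene *FLNC* from 289 and 290.1 CPM to 107 and 87.9 CPM. The 11 were 6 or 7 without either library of 0 h or 48 h and 20 without either 12 h library. Of 46 filopodia, formin and small GTPase genes 10 rose and 8 fell (6 higher without 48 h replicate 1, 4 or 5 lower without either library of 0 h or 48 h). These are shares of 21.7% and 17.4%, against 16.0% and 16.3% of all genes tested. *RHOA* fell (−0.54) and *RHOB* rose (from 70.6 and 59.9 CPM to 181 and 182 CPM). The formin gene *DIAPH3*, which is also a gene of cell division, fell (−1.42), and the formin genes *FMNL2* and *DAAM2* rose (1.08 and 2.84). *CDC42*, *MYO10* and *DIAPH2* did not pass (adjusted p = 0.0998, adjusted p = 0.539 and adjusted p = 0.202). Of 26 tubulin and microtubule genes 10 fell, *TUBA1B* among them (from 619.7 and 607 CPM to 193 and 175 CPM), and 4 rose, among them *MAP2* and *MAPRE3*. The 4 were 2 without 0 h replicate 2 and 7 without either 12 h library.

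No integrin gene fell in the main fit. In the alternatives other than those with 1 library left out 9 to 12 rose and 0 to 2 fell. Of 19 integrin subunits 9 were higher and 0 lower (median 0.75). The laminin receptor subunit *ITGB4* went from 96.1 and 94.6 CPM to 909 and 799 CPM (log2 fold change 3.16, standard error 0.17, adjusted p = 3.87e-06), *ITGB3* from 5.08 and 4.27 CPM to 36.8 and 38.2 CPM, and the collagen receptor subunit *ITGA10* from 5.18 and 4.79 CPM to 57.7 and 56.8 CPM. The abundant *ITGB1* rose by less (0.50). Among 39 focal adhesion genes 12 rose and 4 fell. *TNS4*, a tensin gene that can displace other tensins from integrins, went from 14 and 13.5 CPM to 74.3 and 66.6 CPM, and *NEDD9* from 7.02 and 8.88 CPM to 20.4 and 20 CPM. *TNS1* and *PXN* fell (−1.46 and −0.48), while *BCAR1* and *CTTN* did not pass (adjusted p = 0.0773 and adjusted p = 0.311). The 4 that fell were 2 without 0 h replicate 1 or 48 h replicate 2, 1 without 48 h replicate 1 and 8 without either 12 h library.

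The matrix around the cells changed in several chains. Of 37 collagen and laminin genes 17 rose and 2 fell, and 11 rose without either 0 h library or without 48 h replicate 1. The laminin chains *LAMA5* and *LAMC1* went from 285 and 242 CPM to 1020 and 906 CPM and from 169 and 167 CPM to 402 and 411 CPM. The 2 that fell were *LAMB1* and *COL12A1*, and 6 fell without either 12 h library. Among 41 metalloproteases and their inhibitors 15 rose (8 or 9 without either library of 0 h or 48 h, 23 without 12 h replicate 1) and 3 fell (5 without either 12 h library). *MMP14*, the membrane collagenase gene, went from 94 and 109 CPM to 211 and 213 CPM, *MMP13* from 1.53 and 1.93 CPM to 14.3 and 17.8 CPM, *ADAM8* from 16.7 and 16.6 CPM to 101 and 86.2 CPM and the inhibitor gene *TIMP3* from 64.4 and 70.5 CPM to 139 and 142 CPM. *MMP3* fell from low levels (from 3.53 and 2.43 CPM to 0.776 and 0.363 CPM, adjusted p = 0.0169), and *ADAMTS1* fell with *ADAMTS6*. Of 29 genes of the plasminogen system, serpins and cystatins 8 rose and 5 fell (14 higher without either 12 h library, 3 lower without either 48 h library). *PLAU*, which encodes urokinase, did not pass (adjusted p = 0.754).

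Of 55 genes of the TGF-β, activin and BMP pathways 18 rose and 5 fell. The latent TGF-β binding genes *LTBP1* and *LTBP3* went from 55.4 and 53.5 CPM to 222 and 209 CPM and from 72.8 and 67.7 CPM to 194 and 181 CPM, and the activin B subunit *INHBB* from 19.3 and 17 CPM to 109 and 102 CPM. The antagonist genes *FST* (from 225 and 228 CPM to 72.1 and 89.4 CPM) and *NOG* (−1.59) and the BMP target *ID1* (−1.20) fell. *TGFB1* rose slightly (0.55) and *TGFB2* did not pass. The 18 were 10 and 11 without 0 h replicate 2 or 48 h replicate 1, and the 5 were 3 without 0 h replicate 1 or 48 h replicate 2 and 11 without either 12 h library. Of 34 semaphorin, plexin, neuropilin and ephrin genes 15 rose, among them *NRP1* (from 204 and 208 CPM to 540.2 and 569 CPM) and *PLXND1* (from 68.2 and 65.6 CPM to 343 and 311 CPM). The 4 that fell (*SEMA7A*, *EFNB1*, *NRP2* and *SEMA3E*) were 0 to 2 without any library other than those of 12 h.

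No epithelial secretory gene that passed the filter fell, and few EMT factors passed. Of 23 secretory epithelial and mucin genes that passed the filter, out of 46, 12 rose and 0 fell (median 1.74). Besides *MUC5B* and *SPDEF*, the secretory chaperone gene *AGR2* went from 11.9 and 10.7 CPM to 116 and 120.3 CPM and the glycosyltransferase gene *GALNT5* from 33 and 34.1 CPM to 116 and 124 CPM. *MUC1* rose from low levels (from 1.91 and 1.61 CPM to 4.82 and 4.56 CPM). In the list of EMT factors, cadherins, keratins and junction genes 10 of 40 rose and 4 fell. The junction gene *JUP* (plakoglobin) went from 73.9 and 70.8 CPM to 601 and 524 CPM, and *CDH11*, a mesenchymal cadherin gene, from 65.6 and 69.2 CPM to 546 and 561 CPM (log2 fold change 3.04, standard error 0.11, adjusted p = 6.22e-07). *ZEB1* and *SNAI1* did not pass (adjusted p = 0.215 and adjusted p = 0.185), and *SNAI2* fell (−0.75, adjusted p = 0.027). The 10 were 4, 5 and 6 without 0 h replicate 1 or 48 h replicate 1 or 2, and the 4 were 2 without those libraries and 13 without either 12 h library. The caveola gene *CAV1* fell from 1040 and 1024 CPM to 563 and 569.6 CPM, with 3 lower and 1 higher of 22 caveola and clathrin genes (10 lower without either 12 h library).

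Wnt, Notch and nuclear receptor genes included large single changes. Of 40 Wnt genes 8 rose and 4 fell, shares of 20% and 10% against 16.0% and 16.3% of all genes tested. The co-receptor gene *LRP5* went from 184 and 168 CPM to 1045 and 909.5 CPM (log2 fold change 2.47, standard error 0.13, adjusted p = 3.46e-06), the R-spondin receptor gene *LGR4* from 58.4 and 54.5 CPM to 208 and 220.2 CPM, and the antagonist gene *DKK1* fell from 336 and 329.7 CPM to 136 and 143 CPM. The target *AXIN2* did not pass (adjusted p = 0.574). The 4 that fell were 2 without 0 h or 48 h replicate 1 and 8 without either 12 h library. Of 32 Notch genes 8 rose, with *LFNG*, which modifies the receptors, from 15 and 14.8 CPM to 83.5 and 73.5 CPM and *JAG1* from 101 and 86.3 CPM to 190.2 and 194 CPM, and 4 fell, *NOTCH3*, *NRARP*, *HES4* and *NUMBL*. Without either 12 h library 13 rose and 10 fell, and without either library of 0 h or 48 h 1 or 2 fell. Of 30 nuclear receptors 12 rose (4 to 7 without either library of 0 h or 48 h), *RXRA* and *PPARA* among them (1.24 and 1.52), and *NR2F2* fell while its paralog *NR2F1* rose (−0.78 and 0.78).

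Death and stress genes showed no shared direction. Over all genes tested 16.0% were higher and 16.3% lower. The shares were 22.6% and 16.1% in the BCL2 list, 17.2% and 20.7% among p53 targets and 19.4% and 16.1% among NRF2 genes. Of 31 BCL2 family and death receptor genes 7 rose and 5 fell. *BCL2* fell from 14.6 and 15.4 CPM to 5.15 and 4.9 CPM (log2 fold change −1.58, standard error 0.17, adjusted p = 9.25e-05), the pro-apoptotic gene *BMF* rose from 0.43 and 1.24 CPM to 9.03 and 9.07 CPM and the TRAIL receptor gene *TNFRSF10B* from 105 and 109 CPM to 264 and 266 CPM. *MCL1*, *BCL2L1* and *BCL2L11* did not pass (adjusted p = 0.626, adjusted p = 0.222 and adjusted p = 0.192). The 7 were 3 without 0 h replicate 1 or 48 h replicate 2, and the 5 were 2, 3 and 2 without 0 h replicate 1 or 48 h replicate 1 or 2 and 9 without either 12 h library. Of 29 p53 targets 5 rose and 6 fell, *MDM2* among the latter (−0.59); this line carries a mutant p53. Those 5 were 3 without either replicate 2 of 0 h or 48 h and 10 without either 12 h library, and the 6 were 2 or 3 without either library of 0 h or 48 h. Of 31 NRF2 target and antioxidant genes 6 rose, *CAT* among them (from 71.6 and 67.6 CPM to 138 and 139 CPM), and 5 fell, *TXN* and *PRDX1* among them (−1.07 and −0.94), while *NQO1* and *HMOX1* did not pass. The 5 were 3 without 0 h replicate 2 or either 48 h library and 9 without either 12 h library. Of 28 ABC transporters 9 rose (14 without either 12 h library), with *ABCC3* from 21.1 and 21.1 CPM to 118 and 119 CPM, and 4 fell, of which *ABCE1*, *ABCF1* and *ABCF2* act in translation rather than transport.

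The remaining lists are given by their counts. Primary cilium genes had 19 of 59 higher (7 to 11 without either library of 0 h or 48 h, 29 without either of 12 h) and 4 lower (1 and 10 likewise), with *IFT140* (from 6.73 and 6.81 CPM to 19.9 and 17.8 CPM) and *IFT27* among the higher and *DYNC2I2* lowest (−1.13). Core and linker histones had 1 of 19 higher and 5 lower (8 without either 12 h library), the latter led by *H2AX* (from 497 and 431 CPM to 131 and 116 CPM). Krüppel-like factors had 4 of 15 higher and 3 lower, with *KLF9* at 1.93; without 0 h or 48 h replicate 1 2 were higher and 1 lower, and without 48 h replicate 2 0 were lower. S100 genes had 3 of 13 higher (5 without either 12 h library), *S100A4* among them (from 8.76 and 10.2 CPM to 36.3 and 36.8 CPM). Of 11 genes that were listed from the study's text, 6 were lower (*MMP3*, *ETS1*, *CAV1*, *VIM*, *PXN* and *RAC1*) and 0 higher, 3 and 2 lower without 0 h replicate 1 or 48 h replicate 2; these were partly chosen on the same libraries.

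The largest moves in TPM came from few genes. *IGFBP4*, which encodes a secreted IGF-binding protein, gained most outside the mitochondrial genome, with a mean of 3390 ± 156 TPM (SD, n = 2) at 0 h and 8646 ± 394 TPM (SD, n = 2) at 48 h (log2 fold change 1.28, standard error 0.16, adjusted p = 0.000258). *CST1* was next, from 48 ± 3.39 to 2095 ± 158 TPM (SD, n = 2 each). The other 8 of the 10 largest gains were mitochondrial mRNAs, of which *COX2*, here the mitochondrial cytochrome oxidase subunit gene (from 4158 and 3549 CPM to 8035 and 7585 CPM), and *ND6* (1.40) passed. Over all 13 mitochondrial mRNAs 2 were higher and 1, *ND2*, lower (from 6855 and 6308 CPM to 4605 and 4418 CPM, log2 fold change −0.54). *COX2* and *ND2* differed in direction although both are cut from a long shared precursor. The largest losses were those of *ND2*, *ACTB*, *FTL*, *RPS2*, *HSP90AB1*, *NPM1*, *ACTG1*, *HSP90AA1*, *HMGA1* and *TUBB4B*, of which only *FTL* did not pass (adjusted p = 0.14). *NPM1*, the nucleolar chaperone gene, went from 2958 ± 82.6 to 1392 ± 58.7 TPM (SD, n = 2 each). Several of these genes have near-identical pseudogenes, which may take part of their reads.

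Long noncoding RNAs were called in smaller shares than coding genes. Of the tested lncRNA genes 8.50% were higher and 5.03% lower, against 17.3% and 18% of the protein-coding genes. Calls also depended on level. Of all genes averaging under 1 CPM 4.46% were higher and 1.57% lower, and of those at a log2 CPM of 4 to 6 17.8% and 21.1%. The 2 kinds of gene were not compared at matched levels, so a weaker response of lncRNAs was not tested. Among those averaging a log2 CPM of 2 or more, *LASTR* rose most (from 1.38 and 1.03 CPM to 14.1 and 14.5 CPM, log2 fold change 3.56), followed by *LINC02293* (2.29), *PSMG3-AS1* (2.16) and *LINC00261* (from 43.9 and 48.4 CPM to 193 and 195 CPM). *PTPRG-AS1* (−2.20), *MIR137HG* (from 51.3 and 53.8 CPM to 9.91 and 13.2 CPM), *DLEU2* (−1.81) and *FOXD2-AS1* (−1.73) fell most. How the counting treated strand was not stated, so antisense genes such as *PSMG3-AS1* cannot be told apart from reads of their partners.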

How the data were processed

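RNA libraries (NEBNext Ultra kit) of MDA-MB-231 cells, 2 per time at 0, 6, 12, 24 and 48 h of dasatinib, were sequenced with paired reads of 150 bases. Per the submitters' processing notes, Trim Galore removed adapters, STAR 2.5.2b mapped the reads (build hg38) and featureCounts assigned them to genes. The deposited counts are raw, and the deposited TPM values are scaled by the authors for transcript length and depth. The annotation release and strand setting were not stated. No per-sample column was left out.

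Genes were filtered with filterByExpr, counts were scaled by TMM, and edgeR 4.0.16 (R 4.3.3) fitted 1 mean per time over all 10 libraries by robust quasi-likelihood, leaving 5 residual degrees of freedom. The contrast was 48 h minus 0 h, with Benjamini-Hochberg adjustment and a threshold of 0.05; edgeR's glmTreat tested for more than 2-fold. Levels per length used TPM. Alternatives used DESeq2 1.42.0, limma 3.58.1 on log2(TPM + 1) or log2(TPM + 0.1), other scalings, no filter, a length and GC correction, a replicate term and libraries left out. On simulated counts of 15330 genes for this comparison, 55.4% of 65 genes changed 2-fold, 72.3% of 65 changed 4-fold and 0 of 66 changed 1.5-fold were called, with 4 unchanged genes. In the data themselves 1127 genes with changes under 1.5-fold were called, so the simulation tested the code and not the smallest change that could be called.

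Motifs were counted in 300 bases around the start site and, as an alternative, in the 250 bases upstream. Transcript lengths and biotypes came from GENCODE release 44 and promoters from RefSeq. Genes named are the 15 largest called changes in each direction with average log2 CPM of at least 2, up to 4 called members of each list in each direction by adjusted p, fixed members of each list whatever their value, the 10 largest gains and losses in TPM and 4 lncRNAs in each direction. Promoters are those of the called list member with the smallest adjusted p that held the motif in its 250 upstream bases. Genes of chromosome 8 were left out of this choice. The members and lists were chosen with earlier results of these data known. Some genes are not reported here.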

Additional observations from a re-analysis of the deposited data

Results flagged for a closer look

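For 18 of the genes reported here the change at 48 h and the change at 6 h were called in opposite directions. Both changes were against the same 0 h libraries. The contrast of 48 h with 6 h was also called by edgeR, but opposite calls make this likely, so it adds no separate support. The 48 h calls of *HSPA5*, *SAMHD1* and *IL6R* were close to the threshold (edgeR adjusted p = 0.0419, 0.0422 and 0.0482). The 12 h libraries were not examined in this way because 1 of them stood apart. The following values are the log2 fold change at 48 h minus that at 6 h.

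Among genes lower at 6 h and higher at 48 h, the difference was 4.07 for *ITGB4*, 3.83 for *INHBB*, 3.12 for *IFI44L*, 3.02 for *OAS2*, 2.39 for *BBS9*, 2.37 for *MX2*, 2.32 for *MX1* and 2.06 for *IFIT1*. It was 1.98 for *TIMP3*, 1.62 for *NR2F1*, 1.61 for *CXCL8*, 1.56 for *TNS3*, 1.23 for *SAMHD1*, 1.07 for *EPHA2* and 1 for *HSPA5*. Among genes higher at 6 h and lower at 48 h, it was −1.91 for *SLC7A5*, −1.68 for *SLC3A2* and −1.37 for *IL6R*.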

How the results depend on the processing

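With edgeR on the 4 libraries alone 8158 genes changed (3978 higher, 4180 lower, 1040 by more than 2-fold), without both 12 h libraries 8395 (4078, 4317 and 1085), and with DESeq2 on the 4 libraries alone 7711 (3775 and 3936). Leaving out 1 library gave 2913 to 8364 changed genes, 1418 to 4061 higher, 1418 to 4303 lower and 271 to 1062 by more than 2-fold; the low ends came without a library of 0 h or 48 h and the high ends without one of 12 h. A threshold of 0.01 gave 3044 (1485 and 1559), and a test against 1.5-fold 1710. The spread between replicates, as chi-square per degree of freedom, was 209 at 12 h and 12.7 to 17.8 at the other times. Apart from the stricter threshold and the smaller fold, why the totals moved was not tested. The other scalings, filters and tools moved no total by over 1.5 times. With a replicate block 5051 genes changed (2495 higher, 2556 lower). Whether the replicate numbers pair the samples is not stated. Deviations of same-numbered libraries correlated at −0.30 to 0.28 between times, which cannot settle it. Of 529 named genes 443 were called, and none reversed among the alternatives run. Of the 443, 325 passed in all 18 other edgeR and DESeq2 fits, among which the fit without a filter on low counts was not included. Of 134 counts of called members in gene groups, 96 moved by over 1.5 times when some library was left out, 45 of them by 3 members or fewer. Of the genes with an average under 1 CPM, 4.46% were called higher and 1.57% lower; the part of depth was not tested. Of 30 motif shares over all, higher and lower genes 15 moved with the upstream window; those of the lists stand beside their values.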
